A study of Mus musculus with 30 samples.

Results

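The NRF2 antioxidant and superoxide dismutase genes are 10 of the 21887 protein-coding genes with RefSeq coordinates on mm10 and were taken by name: Nfe2l2, Keap1, Gclc, Gclm, Slc7a11, Txnrd1, Nqo1, Hmox1, Sod1 and Sod2. Their chromatin was compared between 4% and 20% O2 in N1E115 cells, an established line grown from a mouse neuroblastoma and labelled NOS1+. All groups were cultured for 3 days, at 4% O2 or at 20% O2, and 5% CO2 at ambient pressure is stated for the later replicate; no label names any other agent, clone or genetic change. Each O2 level has 2 replicate libraries for each of 6 immunoprecipitated targets: RNA polymerase II (POLR2), its form phosphorylated at serine 5 of the tail repeat (POLR2S5), its form phosphorylated at serine 2 (POLR2S2), acetylated lysine 9 of histone H3 (H3K9ac), the insulator protein CTCF and the cohesin subunit RAD21. Nothing in the labels says that replicates came from separate cultures, so p-values cover only library-to-library spread, technical spread included. Each library averages a whole culture, so fewer cells carrying a signal and less signal per cell cannot be told apart.

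NRF2, the product of Nfe2l2, is a leucine zipper factor that binds antioxidant response elements together with small MAF proteins. KEAP1 is the adaptor that hands NRF2 to a ubiquitin ligase, and oxidants or electrophiles that modify KEAP1 let NRF2 accumulate. Its known targets supply glutathione and thioredoxin reducing power, remove quinones and break down haem, while the superoxide dismutases convert superoxide to hydrogen peroxide. Polymerase phosphorylated at serine 5 is typical of early elongation near gene starts, the serine 2 form of productive elongation through gene bodies, and H3K9ac of active promoters.

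The 250 bases before an annotated start are shown for 6 members: Slc7a11, where the called polymerase islands differed most between groups, Gclm and Txnrd1, whose starts carry CTCF or RAD21 peaks, and Sod1, Nqo1 and Sod2, whose start-flanking H3K9ac ranks were apart between the groups. Capitals mark matches to the NRF2 core, TGACNNNGC or TGAGNNNGC, on either strand, so a match on the reverse strand reads GC first; the forms share bases, and a second, HIF-type motif (ACGTG or GCGTG) was searched separately and may overlap them.
Slc7a11: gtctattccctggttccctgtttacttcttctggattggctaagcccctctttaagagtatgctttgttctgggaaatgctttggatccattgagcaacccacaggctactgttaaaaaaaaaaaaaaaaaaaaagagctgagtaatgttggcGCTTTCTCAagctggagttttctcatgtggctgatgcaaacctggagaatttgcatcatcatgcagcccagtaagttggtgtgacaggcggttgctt
Gclm: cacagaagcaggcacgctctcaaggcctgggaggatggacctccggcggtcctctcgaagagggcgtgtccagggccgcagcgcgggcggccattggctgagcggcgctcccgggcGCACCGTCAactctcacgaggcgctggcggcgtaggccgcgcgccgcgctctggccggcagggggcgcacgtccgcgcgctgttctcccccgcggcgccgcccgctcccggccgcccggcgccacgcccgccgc
Txnrd1: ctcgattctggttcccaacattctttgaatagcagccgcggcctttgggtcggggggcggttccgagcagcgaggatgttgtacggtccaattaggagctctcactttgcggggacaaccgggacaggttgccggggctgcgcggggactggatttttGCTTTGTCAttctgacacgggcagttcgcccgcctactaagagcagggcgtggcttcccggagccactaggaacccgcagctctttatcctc
Sod1: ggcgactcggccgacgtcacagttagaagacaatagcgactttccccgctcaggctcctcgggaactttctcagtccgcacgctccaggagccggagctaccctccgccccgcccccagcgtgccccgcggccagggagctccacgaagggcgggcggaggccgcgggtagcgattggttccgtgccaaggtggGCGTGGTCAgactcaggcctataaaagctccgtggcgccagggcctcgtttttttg
Nqo1: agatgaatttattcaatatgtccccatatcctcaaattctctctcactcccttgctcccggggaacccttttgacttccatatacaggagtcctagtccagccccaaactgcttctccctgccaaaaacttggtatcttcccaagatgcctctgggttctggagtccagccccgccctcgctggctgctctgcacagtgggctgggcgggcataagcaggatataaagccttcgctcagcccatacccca
Sod2: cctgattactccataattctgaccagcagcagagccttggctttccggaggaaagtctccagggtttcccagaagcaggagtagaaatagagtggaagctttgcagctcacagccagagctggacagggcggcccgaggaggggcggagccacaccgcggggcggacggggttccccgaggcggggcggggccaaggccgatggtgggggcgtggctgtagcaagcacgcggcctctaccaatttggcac
The sequences are RefSeq's on GRCm38.p6, written 5′ to 3′ on the gene's strand: Slc7a11 chr3:50443614-50443863 (minus strand), Gclm chr3:122245307-122245556 (plus strand), Txnrd1 at the second of its 3 annotated starts chr10:82858956-82859205 (plus strand), Sod1 chr16:90220512-90220761 (plus strand), Nqo1 chr8:107403206-107403455 (minus strand) and Sod2 chr17:13007589-13007838 (plus strand). Of the 10 members, 8 had an entry in the promoter table, with 10 windows of 250 bases before and 50 after the start; Hmox1 and Gclc had none. The NRF2 core occurred in 5 of these 10 windows (Nfe2l2, Gclm, Txnrd1, Slc7a11 and Sod1), and in 27.8% of all 32851 windows of the same length. The HIF-type motif occurred in 7 of the 10 windows, at 5 members, and in 43.8% of all windows. Among the 21263 windows of protein-coding genes alone, 28.9% held the NRF2 core and 49.3% the HIF-type motif. These matches are descriptions of the letters and say nothing of binding.

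The polymerase lists give SICER islands, stretches of enriched reads, with a whole number of reads for each island. The island reads of a gene are here the summed reads of every island that overlaps the gene with 1 kb each side, and 0 means that no island was called, not that no reads were present. Summed over a library, island reads ranged from 2.06 M to 16.60 M; the POLR2 library of 20% O2 replicate 1 was the thinnest, with islands at 43.6% of genes against 58.1% to 61.5% in the other POLR2 libraries. Sequencing depth itself is unknown. The oxygen labels were checked on 12 genes known to respond to the hypoxia-inducible factors. Their log2 ratios of 4% to 20% O2 were above 0 at 4 of 7 genes tested in POLR2, 10 of 11 in POLR2S5 and 6 of 7 in POLR2S2. Among all genes tested, 4672 of 9245, 5891 of 11534 and 4584 of 9364 were above 0, so the POLR2 share was near that of all genes. For 3 of the 12, POLR2S5 island reads, not scaled to library size, are given at 4% against 20% O2. They were 1245 and 2551 against 140 and 515 at Slc2a1, a glucose transporter. P4ha1, a collagen hydroxylase, had 4482 and 6486 against 815 and 2688, and Bnip3, a mitophagy receptor, 3487 and 4908 against 190 and 863. The POLR2S5 ratios of these 3 lay above the list median of 1.09, and the lowest of the list was -0.11 at Vegfa. Of 11 sympathetic neuroblast markers, 11 carried an H3K9ac peak in each library, while 1 of 7 macrophage and microglia markers, 3 of 8 fibroblast, 2 of 5 endothelial, 1 of 4 astrocyte and 2 or 3 of 5 Schwann cell and oligodendrocyte markers did. POLR2S2 islands were called at fewer neuroblast markers, 8 to 10 of 11. Schwann cell and oligodendrocyte markers (3 or 4 of 5) and macrophage markers (2 or 3 of 7) had as many calls or more. Calls at fibroblast (0 to 3 of 8), endothelial (0 or 1 of 5) and astrocyte markers (0 or 1 of 4) were no more than for H3K9ac. Nos1, the gene of the label NOS1+, had a POLR2S2 island in all 4 libraries (1733 and 3544 reads at 4% against 892 and 3286 at 20% O2) and an H3K9ac peak in 4% O2 replicate 2 alone.

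No member's polymerase island reads changed by the test, and nearly all members were occupied at both O2 levels. H3K9ac peaks were called at 10 of 10 members in each of the 4 libraries, as at 12885 of the 14184 genes (90.8%) with a peak in any library. Islands were called in all 4 libraries at 7 members for POLR2, 9 for POLR2S5 and 8 for POLR2S2, against 66.9%, 81.7% and 70.2% of the genes with an island in any library of that form. The exceptions were Slc7a11 in every form, Nqo1 for POLR2 and POLR2S2, and Sod2 for POLR2. Gclc counted for POLR2S2 only because an island outside the gene touched its 1 kb margin in 20% O2 replicate 1. Among the members tested in edgeR's quasi-likelihood fit, 0 of 7 (POLR2), 0 of 9 (POLR2S5) and 0 of 8 (POLR2S2) passed an adjusted p of 0.05, with 0% of all genes called in each form (of 9245, 11534 and 9364 genes; 319, 409 and 583 had an unadjusted p under 0.05). DESeq2 called 1.23%, 2.24% and 1.71% of the same genes and none of the members. The median log2 ratio of 4% to 20% O2 over the members tested was -0.24 for POLR2, -0.38 for POLR2S5 and 0.14 for POLR2S2, beside 0.01, 0.01 and -0.02 over all genes tested. Scaled to library size, the groups were apart with 4% O2 higher at 0 of 7, 1 of 9 and 1 of 8 members (16.0%, 17.4% and 19.1% of all genes tested) and lower at 1, 2 and 2 members (15.7%, 14.2% and 17.8% of all genes), so these counts are no result about the members. In simulated counts with the observed spread this fit recovered 0% of planted 2-fold and 0% of planted 4-fold changes in each of the 3 forms, so changes of that size were not detectable by this fit at that spread.

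**Figure D1:**
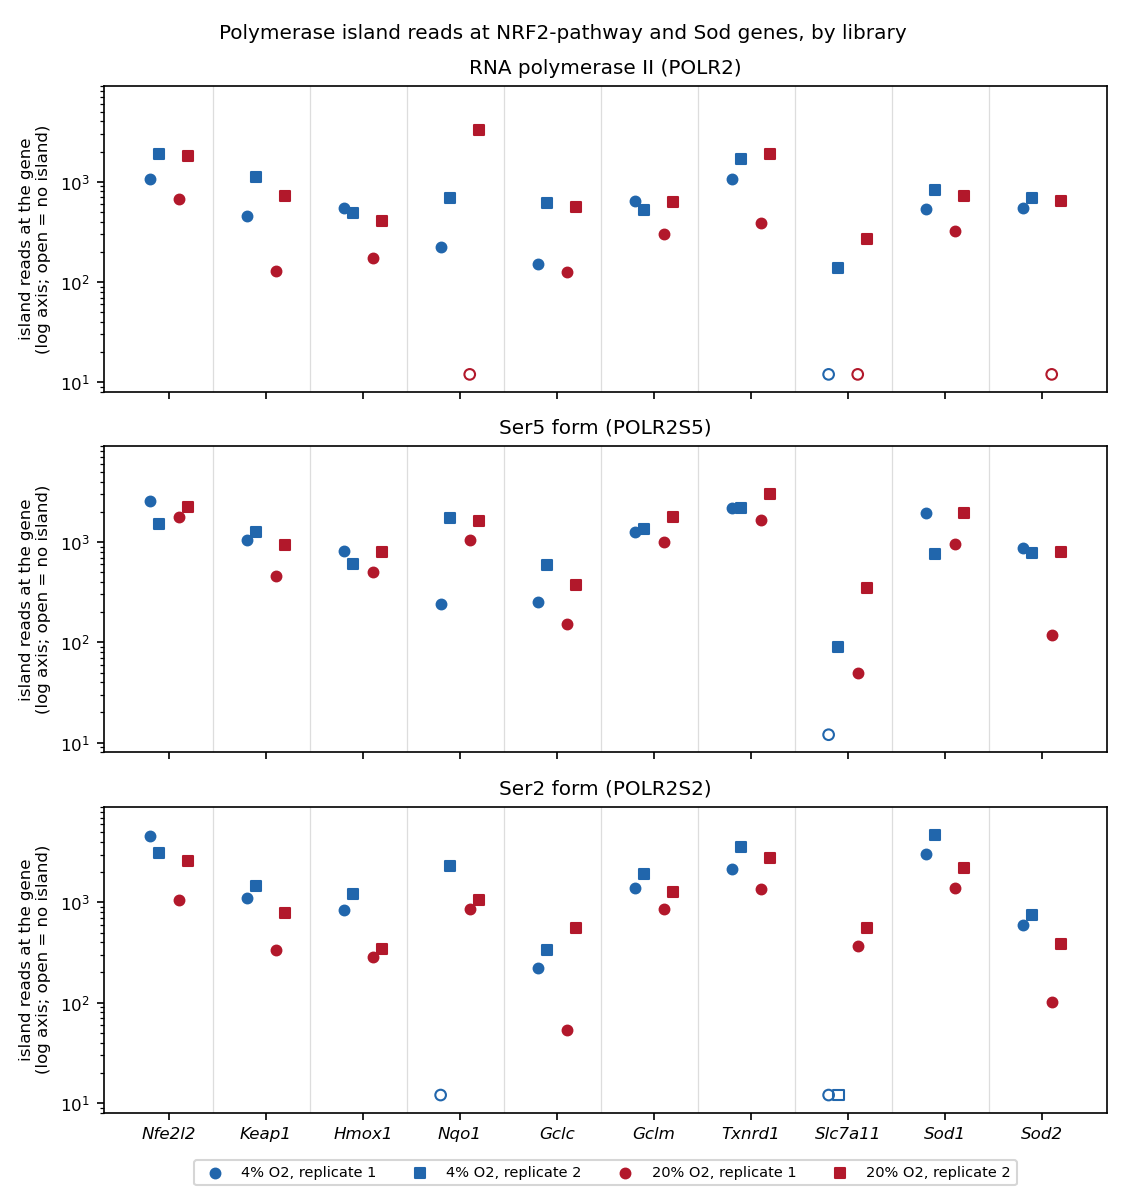
Island reads (log axis) at the 10 members in each of the 12 polymerase libraries; blue is 4% O2, red is 20% O2, circles are replicate 1, squares replicate 2, and open symbols below the scale mark libraries with no island. Slc7a11 holds the open symbols of both 4% O2 libraries for POLR2S2, while its 20% O2 libraries are at 366 and 557 reads.

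**Figure D2:**
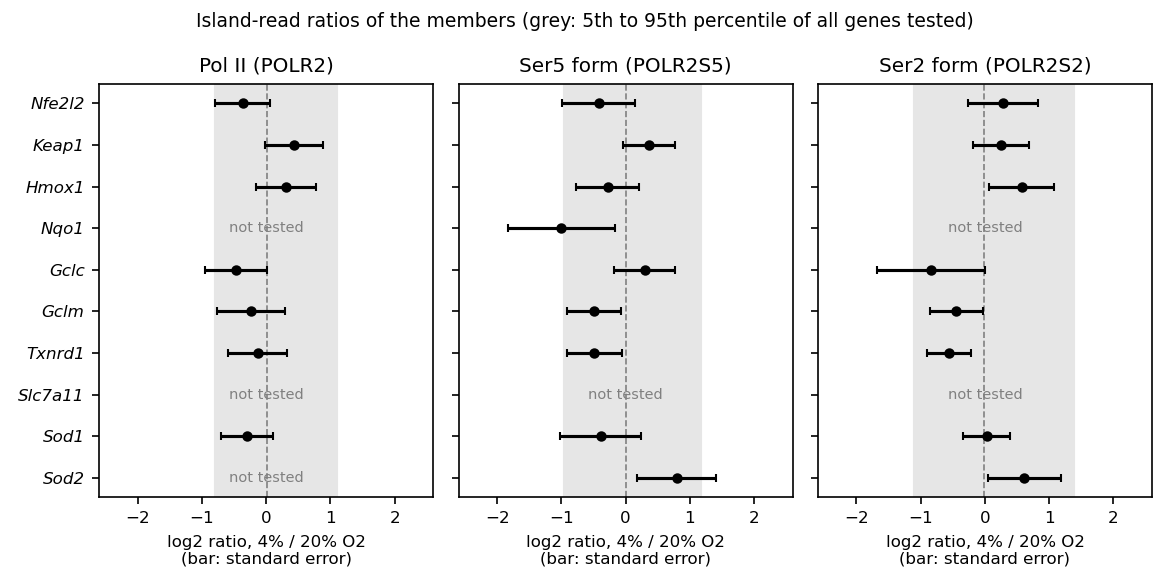
Log2 ratio of island reads, 4% over 20% O2, with its standard error, for each member tested in each polymerase form; the grey band spans the 5th to 95th percentile of all genes tested and the dashed line their median. Of the members tested, 7 of 7, 8 of 9 and 8 of 8 lie inside the band, and Nqo1 in POLR2S5 (-1.0) lies outside.

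Nfe2l2, which encodes NRF2 itself, lies at chromosome 2, 75675513 to 75704663 on the minus strand. In replicates 1 and 2 its POLR2 islands held 1070 and 1886 reads at 4% O2, with 670 and 1791 at 20% O2. POLR2S5 gave 2551 and 1527 reads against 1765 and 2231, and POLR2S2 gave 4613 and 3119 against 1050 and 2603. In raw reads only the POLR2S2 groups were apart, with both 4% libraries above both 20% libraries. As CPM, counts scaled to the size of each library, the POLR2S2 groups overlapped (248.2 and 93.8 against 127.5 and 153.6) and the POLR2 groups were apart, with 4% O2 lower (162.6 and 153.4 against 218.2 and 189.1). The log2 ratios were -0.37 ± 0.42, -0.42 ± 0.57 and 0.28 ± 0.55 in POLR2, POLR2S5 and POLR2S2 (SE, n = 2 and 2; adjusted p = 0.948, 0.983 and 0.922). Islands at its 3′ end ran into Hnrnpa3 in each POLR2 and POLR2S2 library, so those reads cannot be assigned to Nfe2l2 alone. H3K9ac peaks lay on both sides of the start, and a second block lay 18.1 and 19.8 kb inside the gene. The regions of that block ranked at percentiles 76.8 to 99.0 and 64.3 to 95.4 of the regions called in all 4 H3K9ac libraries.

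Keap1, the repressor of NRF2, lies at chromosome 9, 21229730 to 21239332 on the minus strand. POLR2 islands held 454 and 1123 reads at 4% O2 against 128 and 724 at 20% O2. POLR2S5 gave 1043 and 1257 reads against 456 and 925, and POLR2S2 gave 1097 and 1450 against 334 and 775. The raw groups were apart in POLR2S5 and POLR2S2 and overlapped in POLR2; scaled to library size they stayed apart in POLR2S5 only (61.2 and 57.4 against 49.1 and 42.9 CPM). The log2 ratios of 0.44 ± 0.45, 0.37 ± 0.41 and 0.25 ± 0.44 missed the threshold (adjusted p = 0.948, 0.983 and 0.911), and per kb of island they were -0.55, -0.04 and -0.27, where the median of all genes was -0.54, -0.29 and -0.49. Several of these islands run past its start into S1pr5, whose part of the reads is unknown. With reads shared out evenly along each island, the Keap1 window had 54.0 and 58.4 POLR2S5 reads per 1 M island reads at 4% O2. At 20% O2 it had 57.7 and 43.8, so on that scale the groups overlapped. The H3K9ac region over the start was the only member region of H3K9ac whose 4% O2 ranks both lay below both 20% O2 ranks, at percentiles 84.1 and 82.8 against 86.8 and 91.9.

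Glutathione synthesis is represented by Gclc and Gclm, the catalytic and modifier subunits of glutamate-cysteine ligase, and by Slc7a11, the cystine importer that supplies its substrate. Slc7a11 (chromosome 3, 50364936 to 50499087, minus strand) showed the clearest split between groups. POLR2S2 islands were called in both 20% O2 libraries, 6 islands with 366 reads and 4 islands with 557 reads, and in neither 4% O2 library. POLR2S2 island reads in all were 10.43 M and 16.60 M at 4% against 4.87 M and 9.70 M at 20% O2, which is not sequencing depth. Only 39 of the 13348 genes with a POLR2S2 island in any library (0.292%) showed that pattern, while 326 (2.44%) showed the opposite one. POLR2S5 reads were 0 and 90 at 4% against 49 and 352 at 20% O2, and POLR2 reads 0 and 138 against 0 and 269, so the direction was the same in replicate 2 of both forms, and replicate 1 had no POLR2 island at either level. Slc7a11 was left out of the test for lack of islands in all 4 libraries; with no such filter its POLR2S2 value had an unadjusted p of 0.00426 and an adjusted p of 0.997 in edgeR, and no fold is given against libraries at 0.

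The Slc7a11 islands were thin. The 10 POLR2S2 islands held 16.9 to 30.8 reads per kb, at percentiles 2.9 to 79.3 for reads per kb within their own lists. An absent call at 4% O2 can mean a level just under the caller's limit, which was not tested. The smallest POLR2S2 islands in the 4% libraries held 16 and 25 reads in total. Per kb, Gclc islands of 14.4, 16.3 and 21.9 reads stood at percentiles 0.2, 1.7 and 20.0 of the 4% O2 replicate 1 list. In 4% O2 replicate 2, Gclc islands of 21.8 and 29.1 reads per kb stood at percentiles 0.8 and 12.3. Of the 10 Slc7a11 islands, 6 lay in the distal part of the gene. Replicate 1 had 5 islands between 59.6 and 80.6 kb from the start and 1 at 22.4 to 25.6 kb. Replicate 2 had 1 across the start, 2 between 9.6 and 24.4 kb and 1 from 71.8 to 80.2 kb. The 3′ end lies 78.7 kb from the start. The islands across the start in POLR2 and POLR2S5 came from replicate 2 at both O2 levels. H3K9ac at the start did not follow: the region ranked at percentiles 88.1 and 68.3 at 4% and 78.1 and 86.8 at 20% O2, and the groups overlapped.

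**Figure D3:**
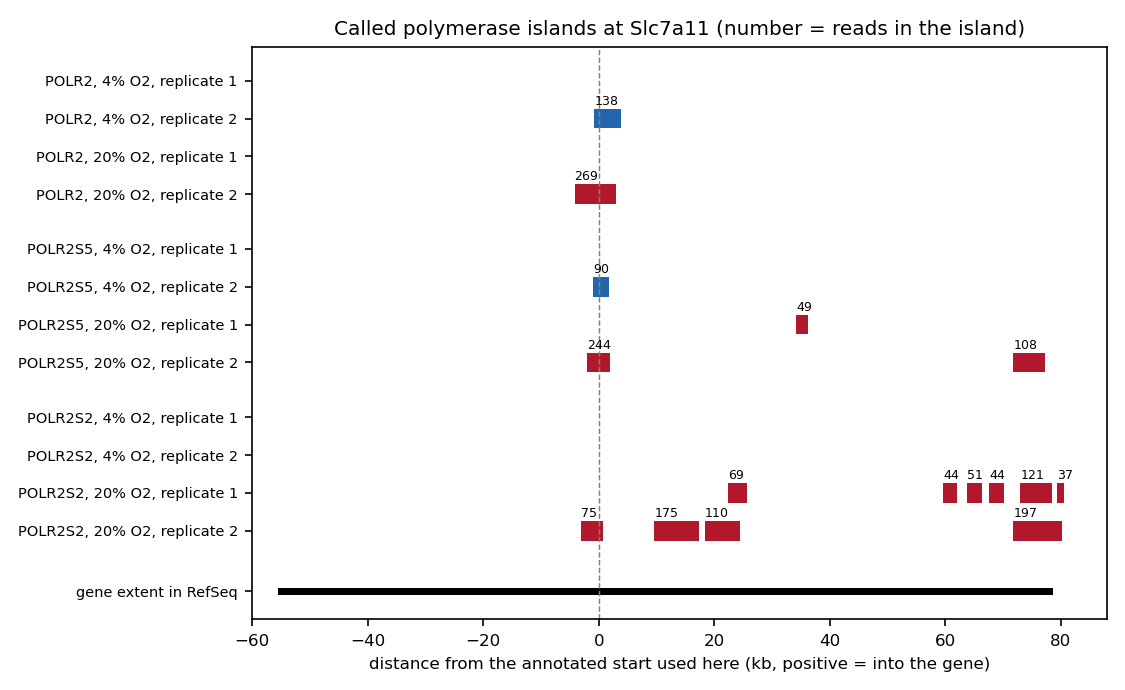
Called polymerase islands at Slc7a11 in the 12 libraries, drawn by distance from the annotated start (kb, positive into the gene) with the number of reads above each bar; blue is 4% O2, red is 20% O2, and the black bar is the RefSeq gene, whose longest model begins 55.5 kb upstream. POLR2S2 islands appear in both 20% O2 libraries and in neither 4% O2 library.

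Gclm (chromosome 3, 122245487 to 122267215, plus strand) had POLR2 island reads of 641 and 521 at 4% against 304 and 627 at 20% O2, POLR2S5 reads of 1266 and 1352 against 1009 and 1782, and POLR2S2 reads of 1389 and 1904 against 863 and 1273. Scaled to library size, the 4% libraries lay below the 20% libraries in POLR2S5 (74.2 and 61.8 against 108.7 and 82.7 CPM) and POLR2S2 (74.7 and 57.3 against 104.8 and 75.1), and the POLR2 groups overlapped. The log2 ratios were -0.24 ± 0.53, -0.49 ± 0.42 and -0.45 ± 0.41 (adjusted p = 0.965, 0.983 and 0.869). Islands at its 3′ end continue into Dnttip2, whose part of the reads is unknown. Reads were also shared out evenly along each island and scaled per 1 M island reads. The Gclm window then had 71.0 and 65.1 against 96.0 and 73.1 in POLR2S5, so the 4% libraries stayed lower. In POLR2S2 the groups overlapped, at 67.2 and 56.9 against 84.3 and 63.8. Gclc (chromosome 9, 77754535 to 77794489) had 151 and 616 POLR2 reads at 4% against 127 and 566 at 20% O2, 254 and 592 POLR2S5 reads against 154 and 377, and 220 and 335 POLR2S2 reads against 53 and 553. Its groups overlapped in each form, and the ratios were -0.47 ± 0.48, 0.30 ± 0.48 and -0.84 ± 0.84 (adjusted p = 0.948, 0.983 and 0.871). The POLR2S2 value of Gclc was set by 20% O2 replicate 2, with 5 islands along the gene. Without that library it was 0.82, a ratio against 20% O2 replicate 1 alone. The 53 reads of replicate 1 lay in an island that began beyond the gene's higher coordinate and covered 0.2% of the window. H3K9ac ranks overlapped between groups at each of the 4 regions of these subunits.

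Txnrd1 encodes cytosolic thioredoxin reductase (chromosome 10, 82833951 to 82897724, plus strand), and had the smallest standard error of the 8 members tested in POLR2S2. Its POLR2 reads were 1055 and 1692 at 4% against 392 and 1878 at 20% O2, POLR2S5 reads 2189 and 2179 against 1661 and 3017, and POLR2S2 reads 2176 and 3568 against 1373 and 2793. Scaled to library size, both 4% libraries were below both 20% libraries in POLR2S5 (128.3 and 99.5 against 179.0 and 140.1 CPM) and POLR2S2 (117.1 and 107.3 against 166.7 and 164.8). The log2 ratios of -0.49 ± 0.43 and -0.56 ± 0.34 did not pass (adjusted p = 0.983 and 0.861), and POLR2 gave -0.13 ± 0.46 (adjusted p = 0.98). Most island reads lay within the gene from just before the second start onward, in an interval that also holds Eid3. The H3K9ac region over the last 2 of its 3 starts, 6344 bases long, stood at percentiles 93.6 to 98.7 in the 4 libraries.

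Nqo1 encodes a quinone reductase and is a standard readout of NRF2 activity (chromosome 8, 107388225 to 107403205, minus strand). Polymerase signal at Nqo1 was irregular: POLR2 reads were 224 and 692 at 4% against 0 and 3284 at 20% O2, POLR2S5 reads 241 and 1748 against 1050 and 1612, and POLR2S2 reads 0 and 2329 against 853 and 1063. The high values belong to islands shared with neighbours: 3013 of the 3284 POLR2 reads lay in a single island of 103.0 kb over Nfat5, and the POLR2S2 islands extended into Nob1. Reads were then shared out by overlap, which splits each island's reads evenly along its length, as their true places within it are not known. So assigned, the Nqo1 window had 197 and 394 POLR2S5 reads at 4% against 193 and 394 at 20% O2. Per 1 M island reads these were 17.9 and 32.8 against 32.6 and 31.8: in replicate 1 the 4% library was lower, and in replicate 2 the libraries were close. On the same scale POLR2 gave 32.9 and 39.1 against 0 and 35.4, and POLR2S2 gave 0 and 24.3 against 20.9 and 7.1, so the groups overlapped in each form but POLR2S5 and POLR2S2 had their lowest library at 4% and POLR2 at 20% O2. The POLR2S5 ratio was -1.0 ± 0.83 from whole islands (adjusted p = 0.983) and -0.28 ± 0.43 from shared-out reads (edgeR adjusted p = 1).

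H3K9ac around the Nqo1 start was ranked higher at 4% O2. Ranks here are percentiles of a peak's score, the authors' -log10 q-value, among regions called in all 4 libraries, since scores themselves are not comparable between lists. The region just inside the gene, centred 0.9 kb from the start, ranked at 57.3 and 30.7 at 4% against 3.3 and 14.1 at 20% O2 (scores 19.1 and 20.0 against 6.0 and 10.8). The region before the start ranked at 93.0 and 73.1 against 60.2 and 41.5 (scores 40.7 and 48.6 against 34.9 and 25.5). In both regions the 4% libraries lay above the 20% libraries. No test is given for ranks, because an exact permutation test of 2 libraries against 2 cannot reach the threshold of 0.05.

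Hmox1 encodes inducible haem oxygenase (chromosome 8, 75093618 to 75100593). Its POLR2 reads were 548 and 489 at 4% against 172 and 409 at 20% O2, POLR2S5 reads 811 and 599 against 498 and 801, and POLR2S2 reads 832 and 1211 against 284 and 344. Only the POLR2S2 groups were apart after scaling (44.8 and 36.4 against 34.5 and 20.3 CPM), with 4% O2 higher; the ratio was 0.57 ± 0.51 (adjusted p = 0.869). Both 4% islands of POLR2S2 ran into the neighbour Mcm5, whose part of the reads is unknown. Sharing reads out evenly along each island assigned the Hmox1 window 435 and 461 against 184 and 234. Per 1 M island reads these were 41.7 and 27.8 against 37.7 and 24.1, so the scaled groups overlapped, and the shared-out ratio was 0.21 ± 0.43 (edgeR adjusted p = 0.943). Per kb of island the POLR2S2 ratio was -0.22, above the median of -0.49 over all genes on that scale. POLR2 and POLR2S5 gave 0.31 ± 0.46 and -0.28 ± 0.49 (adjusted p = 0.951 and 0.983). A weak H3K9ac region 1.5 kb inside the gene ranked at 18.0 and 21.6 at 4% against 5.5 and 4.0 at 20% O2, while the stronger region next to the gene's edge overlapped between groups (73.2 and 80.1 against 73.9 and 81.5). The region before that edge also overlapped, at 7.9 and 25.5 against 53.5 and 16.5, with opposite directions in the 2 replicates; its mean rank difference of -18.3 was the lowest of the H3K9ac member regions.

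Sod1, the copper-zinc dismutase of the cytosol, lies at chromosome 16, 90220762 to 90226333 on the plus strand. Its POLR2 reads were 535 and 824 at 4% against 325 and 726 at 20% O2, POLR2S5 reads 1934 and 767 against 950 and 1969, and POLR2S2 reads 3036 and 4679 against 1384 and 2204. All but 1 of its 13 islands continue into Scaf4, whose part of the reads is unknown. Sharing reads out evenly along each island assigned the Sod1 window 338 and 521 POLR2S2 reads at 4% against 235 and 319 at 20% O2. Per 1 M island reads of the library these were 32.4 and 31.4 against 48.2 and 32.9, so both 4% libraries were lower once scaled, and the shared-out ratio was -0.30 ± 0.38 (edgeR adjusted p = 0.929). From whole islands the ratios were -0.30 ± 0.40, -0.38 ± 0.63 and 0.03 ± 0.36 (adjusted p = 0.951, 0.983 and 0.987). The H3K9ac region before the start had the largest rank difference of the member regions (52.7): it ranked at 80.4 and 62.7 at 4% against 18.2 and 19.4 at 20% O2 (scores 29.2 and 40.1 against 13.0 and 13.1). The region over and after the start did not split, with ranks of 62.6 and 79.5 against 64.7 and 87.7.

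Sod2, the manganese dismutase of mitochondria, lies at chromosome 17, 13007839 to 13018119 on the plus strand. Its POLR2 reads were 547 and 684 at 4% against 0 and 641 at 20% O2, POLR2S5 reads 867 and 780 against 119 and 795, and POLR2S2 reads 593 and 743 against 102 and 389. The low values came from 20% O2 replicate 1, whose POLR2S5 and POLR2S2 islands covered 47.2% and 37.5% of the window and began inside the gene, whereas in the other libraries of these forms they covered 86.0% to 97.4%. The ratios were 0.79 ± 0.62 and 0.62 ± 0.56 (adjusted p = 0.983 and 0.869); in replicate 1 alone they were 1.99 and 1.37, and in replicate 2 alone -0.05 and -0.04. H3K9ac ranked higher at 4% O2 on both sides of the start, at 86.3 and 72.4 against 62.1 and 62.9 before it and at 81.1 and 90.0 against 58.6 and 74.2 after it.

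Across the 10 genes, 23 H3K9ac regions were called in all 4 libraries. Of these, 6 ranked higher at 4% O2 with the groups apart (Nqo1, Sod2, Sod1 and Hmox1) and 1 lower (Keap1), against 14.3% higher and 11.8% lower among the 27643 such regions at all genes. Within replicates, whose libraries share a flow cell, 10 of the 23 ranked higher at 4% O2 in both and 3 lower in both, against 28.9% and 25.7% of the regions at all genes. The median rank difference, 4% minus 20% O2, was 4.0 over the members and 0.9 over all genes; within replicate 1 it was 6.3 against 1.6, and within replicate 2 7.8 against -0.2. The 6 regions came from 4 genes, and neighbouring regions of a gene share its start.

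**Figure D4:**
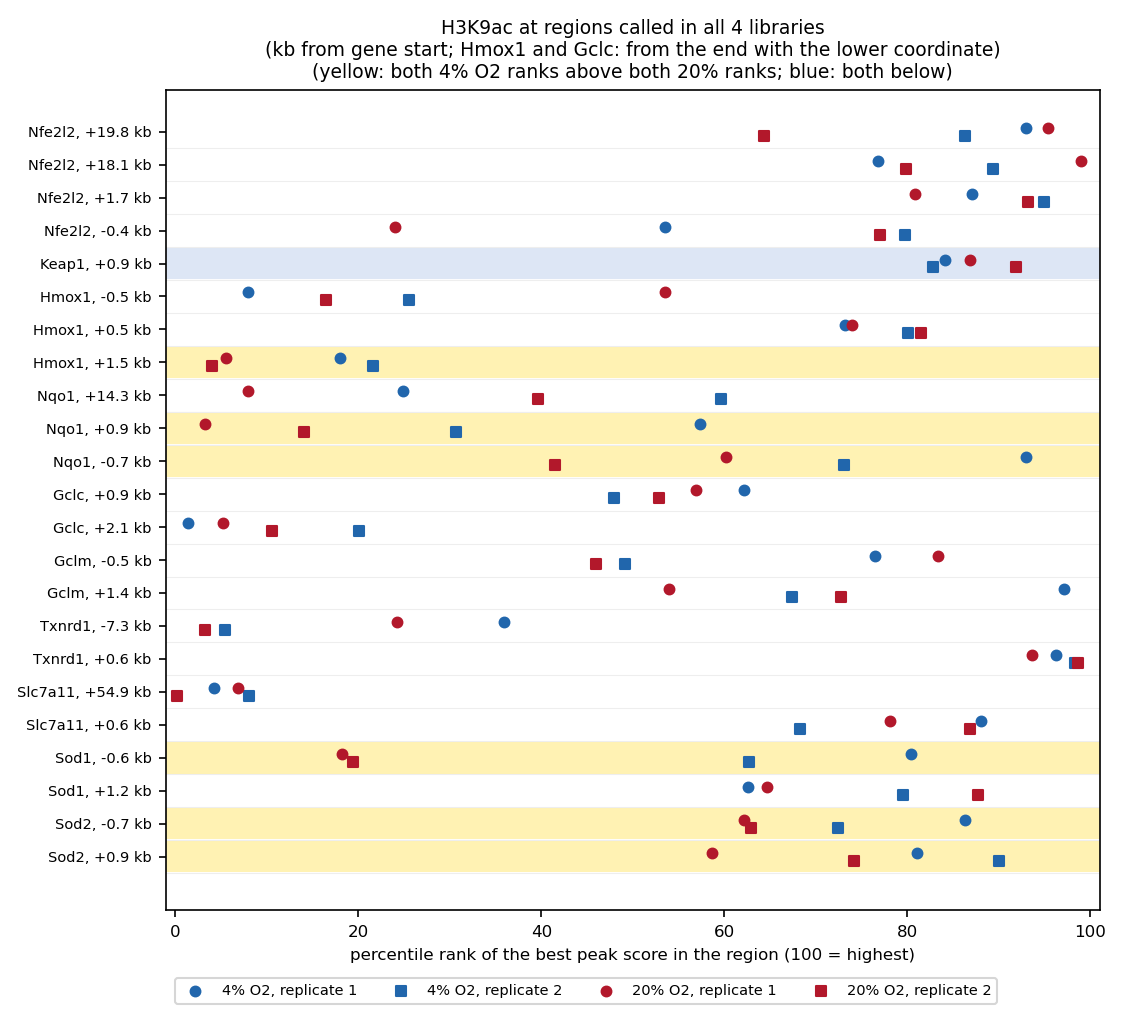
Percentile rank of the best H3K9ac peak in each of the 23 member regions called in all 4 libraries, labelled by gene and distance from its start in kb (for Hmox1 and Gclc from the gene's lower coordinate); blue is 4% O2, red is 20% O2. The yellow rows, 6 in number, have both 4% O2 ranks above both 20% O2 ranks, and the blue row, Keap1, the reverse.

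CTCF and RAD21, which mark insulators and loop anchors, were bound at distinct places in these genes. CTCF peaks were called in all 4 libraries at 8 members, against 75.5% of the 14954 genes with a CTCF peak in any library. RAD21 peaks were called in all 4 at 6 members, against 61.8% of 12239 such genes. Sod1 had neither in any library, Hmox1 had 1 weak CTCF peak in 20% O2 replicate 2, and Keap1 and Hmox1 had no RAD21 peak. The strongest CTCF region crossed the 3′ end of Nqo1 (chromosome 8, 107385487 to 107389864), with ranks of 86.8 and 89.3 at 4% and 84.7 and 91.0 at 20% O2, and RAD21 lay at the same place. Slc7a11 held a paired CTCF and RAD21 site 61.5 kb into the gene (chromosome 3, 50381512 to 50382756). Gclm had a CTCF region over its start, with a RAD21 region of low rank (2.0 to 5.0) inside it. Txnrd1 held a paired site at its annotated starts (chromosome 10, CTCF 82859608 to 82859965, RAD21 82858921 to 82860767). Gclc held a paired site inside the gene 27.1 kb from its lower coordinate, and Sod2 a paired site 2.4 kb inside the gene.

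None of the 13 CTCF regions at members had its groups apart, where 12.3% were higher and 8.12% lower at 4% O2 among all 24802 regions at genes. The median CTCF rank difference was -0.8, beside 1.2 over all genes. Within replicates 1 and 2 the member medians were 0.2 and 2.0, close to the 0.3 and 1.7 over all genes. Within replicates, 4 CTCF regions were higher at 4% O2 in both and 2 lower in both, beside 31.9% and 22.9% of all regions at genes. Of 6 RAD21 regions, 1 was higher at 4% O2, where the background was 20.0% higher and 13.4% lower: the Sod2 site ranked at 72.9 and 19.5 at 4% against 5.0 and 13.6 at 20% O2. The difference at that Sod2 site was 67.9 percentile points in replicate 1 and 5.9 in replicate 2. Within replicates, 3 RAD21 regions were higher at 4% O2 in both and 0 lower in both, beside 34.5% and 23.8% of all regions at genes. The RAD21 list of 20% O2 replicate 1 was the shortest, with 26908 peaks against 39014 to 73348 in the other RAD21 lists, and the part this plays was not tested.

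**Figure D5:**
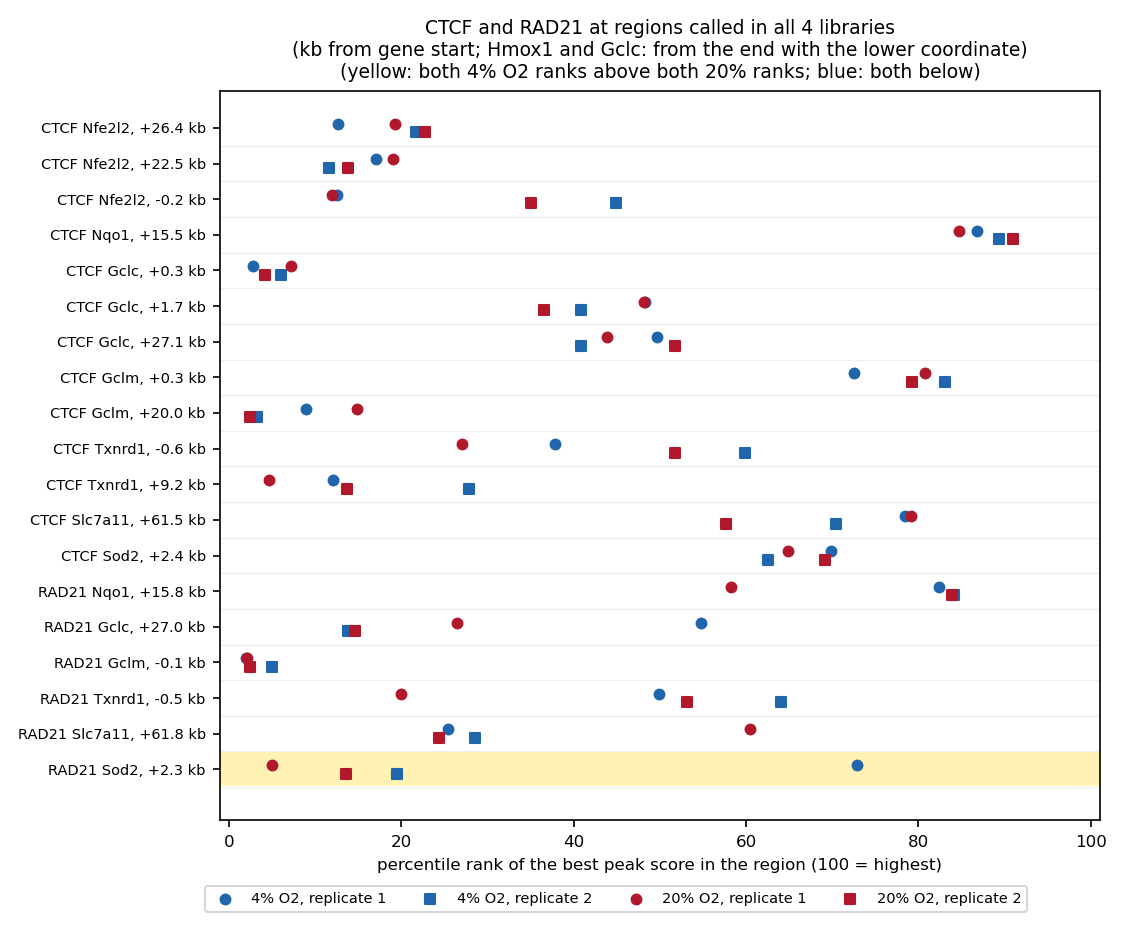
Percentile rank of the best CTCF or RAD21 peak in each member region called in all 4 libraries of that protein (13 and 6 regions), labelled by gene and distance from its start in kb (for Gclc from the gene's lower coordinate); blue is 4% O2, red is 20% O2. Only the RAD21 site of Sod2 has both 4% O2 ranks above both 20% O2 ranks.

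Compared per length, the members differed widely among themselves. POLR2S2 reads per kb of window, shared out evenly along each island, were turned into percentiles among genes with an island. Sod1 stood at 73.4 to 79.3, Keap1 at 64.7 to 74.1, Txnrd1 at 57.0 to 75.4 and Hmox1 at 54.7 to 77.7. These ranges over the 4 libraries overlap. Nfe2l2 ranged from 65.8 to 97.2, Sod2 from 42.2 to 77.2 and Gclm from 49.5 to 61.9. Nqo1 stood at 37.6, 34.8 and 16.7 in the 3 libraries with an island. Gclc (0.3 to 33.6) and the 2 values of Slc7a11 (18.7 and 16.4) formed the low end and did not differ beyond their spread. The 0.3 of Gclc came from an island that covered 0.2% of its window. The Slc7a11 window of 136.2 kb includes 55.5 kb before the start used here, which lowers its reads per kb. By the correlation of log2 CPM over the 12 polymerase libraries, centred within each antibody, the gene most like Hmox1 among 7302 was Gng2 (r = 0.94), like Gclm Rps27a (0.95), like Txnrd1 Rps6ka2 (0.95) and like Keap1 Ttc3 (0.95). These correlations share libraries and depth and are the highest of many; they are given as descriptions.

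Beyond the 10 members, 71 further redox genes in 6 lists were examined, and 0 passed edgeR in any form (0 of 52, 60 and 44 tested). The thioredoxin and peroxiredoxin list had median log2 ratios of 0.29, 0.20 and -0.23 in POLR2, POLR2S5 and POLR2S2 (14, 15 and 10 genes tested); its highest value in POLR2S5 was Txnrd2, mitochondrial thioredoxin reductase, with POLR2S5 reads of 2461 and 3345 at 4% against 380 and 734 at 20% O2 (1.99 ± 0.42, edgeR adjusted p = 0.983, DESeq2 adjusted p = 3.30e-07). Among NADPH suppliers, Me1, the cytosolic malic enzyme, had POLR2S2 reads of 1433 and 2586 against 86 and 179 (2.88 ± 0.45, edgeR adjusted p = 0.412, DESeq2 adjusted p = 6.57e-06). Among glutathione enzymes, Chac1, which degrades glutathione, was lowest in each form, with POLR2S2 reads of 772 and 1108 against 1514 and 2398 (-2.12 ± 0.40, edgeR adjusted p = 0.553, DESeq2 adjusted p = 0.00259). Per kb of island these 3 values were 0.05, -0.72 and -0.12, beside medians of -0.29 (POLR2S5) and -0.49 (POLR2S2) over all genes. The 3 genes were named as extremes of their lists, and no other gene of the 6 lists passed DESeq2 at an adjusted p of 0.05. Of all genes tested, DESeq2 called 1.23% in POLR2, 2.24% in POLR2S5 and 1.71% in POLR2S2.

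The list medians did not keep one sign over the 3 polymerase forms. In POLR2, POLR2S5 and POLR2S2 the median log2 ratio of NRF2 partners and regulators was -0.06, 0.07 and 0.17 (9, 11 and 10 genes tested), with Maff, a small MAF partner, highest in POLR2 (1.92 ± 0.87, edgeR adjusted p = 0.948; reads 843 and 5961 against 115 and 1173). Glutathione enzymes had medians of -0.15, 0.17 and -0.22 (10, 11 and 9 genes), with Gss, glutathione synthetase, highest in POLR2S5 (1.73 ± 0.57, edgeR adjusted p = 0.983). NADPH suppliers had medians of -0.09, -0.10 and 0.02 (9, 9 and 7 genes). Haem, iron and quinone enzymes had medians of -0.07, 0.31 and 0.33 (7, 11 and 6 genes), and other superoxide and peroxide enzymes -0.02, 0.43 and 0.25 (3, 3 and 2 genes). The hypoxia-responsive list, measured the same way, had medians of 0.23, 1.09 and 1.14 and likewise 0 calls in edgeR; in POLR2S5 Slc2a1, P4ha1 and Bnip3 had ratios of 2.28, 1.39 and 2.82 (edgeR adjusted p = 0.983 for each; DESeq2 adjusted p = 1.16e-04, 0.0102 and 1.29e-07). Vegfa, a growth factor for blood vessels, was below 0 in each form (-0.21 ± 0.56, -0.11 ± 0.57 and -0.17 ± 0.49; edgeR adjusted p = 0.971, 0.994 and 0.951).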

How the data were processed

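Chromatin was immunoprecipitated from N1E115 cells with 6 antibodies at 2 O2 levels, with 2 libraries each; 24 libraries were used and the 6 inputs were not analysed here. The submitters' processing notes name BWA, Picard, SICER and MACS2 with build mm10, without a version or parameter. For POLR2, POLR2S5 and POLR2S2 the deposited lists hold SICER islands with a whole-number read count. For H3K9ac, CTCF and RAD21 the deposited score is the -log10 of MACS2's q-value, from the values just above 2 upward, and served only to rank peaks within a list. Each list is of 1 library. The replicate 2 lists stand with the first deposit and were tied to replicate 2 because the lists of its own samples lie inside them with equal scores (12 of 12).

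Island counts were summed per gene with 1 kb each side (overlap of at least 1 bp; an island over several genes counts for each) and tested with edgeR 4.0.16 (quasi-likelihood, TMM, Benjamini-Hochberg over all genes with an island in all 4 libraries, threshold 0.05) in R 4.3.3; standard errors are the ratio over the root of F. DESeq2 1.42.0, other scalings, filters and windows were alternatives. Peaks overlapping between libraries by 1 bp were merged into regions, and each library's best scores were turned into percentiles over the regions it shares with the other 3. Total counts in islands are not sequencing depth. The edgeR step was tested on simulated data: at a low spread it recovered 99%, 98% and 100% of planted 2-fold changes in POLR2, POLR2S5 and POLR2S2, and 0% at the observed spread.

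Same-numbered libraries share a flow cell per the file headers, and their deviations correlated at 0.32, 0.39 and 0.32 across genes in the 3 forms, by construction of 2 groups of 2 the same value for both pairs. The 20% O2 replicate 1 list of CTCF carries a code in its header that no label explains. Named genes are the 10 members, and in each other list the genes past the threshold and those with the highest and lowest ratio per form; of these the text prints the ones that bear on a statement, and of the hypoxia list Slc2a1, P4ha1, Bnip3 and Vegfa. The members and the lists were chosen with earlier results of these data known.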

Additional observations from a re-analysis of the deposited data

How the results depend on the processing

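The log2 ratios of the members changed sign in 15 of 239 fits under other settings and in 11 of 96 that left out 1 library, where a group of 1 library takes its spread from the other group. None passed the threshold, which says nothing of stability, since edgeR recovered 0% of planted changes at the observed spread. With reads per kb of island the sign turned for Keap1 (POLR2 -0.55, POLR2S5 -0.04, POLR2S2 -0.27), Hmox1 (POLR2 -0.79, POLR2S2 -0.22), Gclc (POLR2S5 -0.74), Nfe2l2 (POLR2S2 -0.90) and Sod1 (POLR2S2 -0.51). That scaling moved the median of all genes to -0.54, -0.29 and -0.49. With reads shared out by overlap it turned for Hmox1 (POLR2 -0.17, POLR2S5 0.09), Txnrd1 (POLR2 0.02), Gclc (POLR2S5 -0.27), Keap1 (POLR2S2 -0.01) and Sod1 (POLR2S2 -0.30), and with 5 kb each side for Gclc (POLR2S5 -0.38). Leaving out 1 library gave ranges across 0 for Hmox1 (-0.37 to 0.75), Gclm (-1.02 to 0.24) and Txnrd1 (-0.40 to 0.22) in POLR2, for Nfe2l2 (-1.07 to 0.02), Gclc (-0.28 to 0.67) and Sod1 (-1.47 to 0.14) in POLR2S5, and for Nfe2l2 (-0.58 to 0.82), Gclc (-1.57 to 0.82) and Sod1 (-0.09 to 0.23) in POLR2S2.

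Over all genes, edgeR called 0 in each form; DESeq2 called 114 (83 higher), 258 (147 higher) and 160 (115 higher) in POLR2, POLR2S5 and POLR2S2. Leaving out 1 library gave 0 to 38 calls in POLR2 (38 without 4% O2 replicate 1), 0 to 25 in POLR2S5 (25 without 4% O2 replicate 1) and 0 in POLR2S2. With the replicate block, 0 genes were called in each form, and it changed no other call. The H3K9ac median rank difference of 4.0 was 2.3 with summed scores, 6.3 and 7.8 within replicates 1 and 2 (replicate block), and 3.3 to 5.6 with 1 library left out. The CTCF median of -0.8 was -2.4 with summed scores, 0.6 with scores of at least 10, 2.0 within replicate 2 (replicate block), and -2.2 to 0.6 with 1 library left out. The RAD21 median of 13.0, from 6 regions, was 26.2 within replicate 1 and 3.3 within replicate 2, and 3.2 to 16.4 with 1 library left out. Over all genes the RAD21 median was 2.1. With scores of at least 10 the H3K9ac regions higher at 4% O2 numbered 4, not 6, and the RAD21 region of Sod2 was lost. Counts of members with calls in all 4 libraries stayed within 1.5 times of the stated ones: POLR2S2 islands 7 to 9, RAD21 peaks 4 to 6 and CTCF peaks 7 to 8. The causes were not tested. An island list holds no reads outside islands, so a level under the caller's limit cannot be measured here.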
